A study of Mus musculus with 15 samples.

Results

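The genes described here encode the epithelial sodium channel (ENaC) and proteins that accompany the sodium pump. They are SCNN1A, SCNN1B and SCNN1G for the channel subunits, FXYD2, FXYD3, FXYD4 and FXYD5 for FXYD regulators of the pump, and ATP1B1 and ATP1B3 for pump beta subunits. These 9 genes, of 24891 genes with a usable symbol, were taken by symbol, and all 9 were found. They were picked with their levels in view, because SCNN1G was lower while FXYD3 and FXYD4 were higher in the knockdown libraries. Their differences between knockdown and control are therefore given as a description, with no p-value, and the count of them called is printed beside the share over all genes only as background.

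RNA came from 105K tumors, grown from Tsc2-deficient cells of a mouse kidney tumor after subcutaneous injection into syngeneic wild-type C57BL/6J mice, which were male and 6 weeks old at injection. Every group thus lacks Tsc2 in the tumor cells and has an intact immune system. The cells stably carried a control shRNA (sh-NC) or 1 of 2 shRNAs against B7-H3, the checkpoint protein encoded by CD276, told apart as (1) and (2). Bulk tumors were available with sh-NC and sh-B7-H3 (1), and tumor cells sorted by magnetic removal of host cells with all 3 shRNAs, which gave 5 groups of 3 libraries. All tumors come from 1 parental line, and whether libraries of a group came from separate mice is not given in the sources used here, so p-values measure the spread between these libraries.

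ENaC is the channel through which sodium enters epithelial cells from the urine, the airway surface or the gut lumen, and it is assembled from alpha (SCNN1A), beta (SCNN1B) and gamma (SCNN1G) subunits. In the kidney it works in the aldosterone-responsive distal nephron and collecting duct, where serine proteases that cut the alpha and gamma subunits raise its activity and the ubiquitin ligase NEDD4L removes it from the membrane. Sodium then leaves across the opposite membrane through the Na,K-ATPase, a pump with a catalytic alpha subunit, a glycosylated beta subunit that brings it to the surface, and a small FXYD protein that tunes its affinity for ions.

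Levels are scaled FPKM, fragments per gene length and library total, divided by 1 factor per library, so they can be compared between genes as well as between libraries. Differences are on the log2(scaled FPKM + 1) scale, knockdown minus control, with the standard error (SE) from limma. A gene was tested where at least 3 libraries of the comparison reached 1 scaled FPKM, and it is called changed at an adjusted p under 0.05 (limma with Benjamini-Hochberg adjustment).

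Several features of the libraries bear on the values. Relative depth ranged from 0.468 to 1, and 1 short RNA gene, MIR6236, took 6.01% to 79.7% of a library's summed FPKM. CD276 was at 34.1, 20.1 and 17.3 scaled FPKM in sorted sh-NC cells, at 7.32, 14.01 and 11.5 in the sorted libraries labelled sh-B7-H3 (1), and at 23.4, 25.5 and 25.8 in those labelled sh-B7-H3 (2). In bulk tumors it was at 20.8, 23.3 and 23.6 with sh-NC and at 22.4, 17.9 and 24.5 in libraries labelled sh-B7-H3 (1). The target transcript was thus below the controls only in the sorted libraries labelled sh-B7-H3 (1), and the other knockdown groups are named here by their labels. Sorted sh-B7-H3 (2) replicate 1 stood apart: the sum of 10 leukocyte markers was 343 scaled FPKM in this library, with a range of 5.25 to 11.3 over the remaining 8 sorted libraries and of 323 to 638 over bulk tumors. In bulk tumors, 8 skeletal muscle markers summed to 5.07 to 23.1 with sh-NC and 39.6 to 708 with sh-B7-H3 (1). Over the sorted libraries these markers summed to 35.8 to 106, so transcripts of this kind were present there too. The 8 epithelial markers summed to 1010 or more in every sorted library, and the renal lineage markers PAX8, PAX2 and CDH16 were expressed there while LHX1 was near 0. With FPKM as deposited, without the scaling, the median log2 difference of all genes in sorted knockdown cells moved from 0.007 to 0.196, and the share of called genes that were higher moved from 61.4% to 86.4%. That share moved from 67.4% to 84.2% for sorted sh-B7-H3 (1), from 61.1% to 83.2% for sorted sh-B7-H3 (2), from 60.1% to 70.2% for bulk tumors, and from 61.6% to 79.8% for bulk against sorted sh-NC.

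All 3 channel subunits are on mouse chromosomes 6 and 7. In the mm10 build (GRCm38.p6), Scnn1a is at chr6:125314271-125344943, Scnn1g at chr7:121734420-121768482 and Scnn1b at chr7:121865038-121918728, so that 96556 bases separate Scnn1g from Scnn1b. Fxyd3 (chr7:31070535-31076697) and Fxyd5 (chr7:31032723-31042331) lie in 1 cluster on chromosome 7 with 28204 bases between them, while Fxyd4 is at chr6:117933558-117937714 and Fxyd2 at chr9:45399709-45410278. Atp1b1 is at chr1:164437099-164458355 and Atp1b3 at chr9:96332655-96364431. Promoter windows from RefSeq, 250 bases before to 50 bases after a start site, were found for 7 of the 9 genes. Those of SCNN1G and FXYD3, the genes whose levels moved most in opposite directions, are shown here up to the first annotated exon base, 5′ to 3′ on the gene's strand. The SCNN1G stretch is chr7:121734229-121734419 on the plus strand and the FXYD3 stretch chr7:31076705-31076947 on the minus strand. Capitals mark CACCTG, read on either strand, the E-box recognised by SNAI and ZEB repressors.
SCNN1G: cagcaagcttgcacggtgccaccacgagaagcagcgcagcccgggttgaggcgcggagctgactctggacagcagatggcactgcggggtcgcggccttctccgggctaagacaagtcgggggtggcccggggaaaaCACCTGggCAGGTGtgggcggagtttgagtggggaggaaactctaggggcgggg
FXYD3: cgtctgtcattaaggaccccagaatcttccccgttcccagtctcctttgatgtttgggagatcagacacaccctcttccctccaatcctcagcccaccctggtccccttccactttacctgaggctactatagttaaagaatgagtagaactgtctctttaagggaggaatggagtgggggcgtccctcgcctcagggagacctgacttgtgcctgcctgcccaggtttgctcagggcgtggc
SCNN1G held CACCTG once on each strand, 113 and 105 bases before the start site of its RefSeq window, which lies inside the gene's annotated span and therefore downstream of the printed stretch. Of 32851 promoter windows, 20.2% held this hexamer and 2.88% held it 2 or more times. FXYD3 held, on either strand, neither CACCTG nor the mineralocorticoid and glucocorticoid receptor half-site AGAACA (19.0% of all windows) nor the grainyhead-like core AACCGG (6.8%). FXYD4 had CACCTG 121 bases before its window's start site and SCNN1B had it 20 bases after. ATP1B3 had CACCTG in 1 of its windows and AACCGG in the other, and FXYD5 and ATP1B1 had no match to any of these. These are matches of letters in a window and not measured binding sites.

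Across the 9 genes, sorted libraries with either B7-H3 shRNA had more FXYD3, FXYD4 and SCNN1A and less SCNN1G and ATP1B1 than sorted sh-NC cells, and the same 5 genes were separated from the controls in bulk tumors. FXYD3 was at 111 ± 31.4 scaled FPKM (SD, n = 6) in sorted knockdown cells and 11.3 ± 0.660 (n = 3) in controls, and SCNN1G at 2.55 ± 1.99 and 8.70 ± 0.977. With both shRNAs as 1 group, 3 of the 9 genes were called higher and 2 lower, where 12.6% of all 11428 genes tested were called higher and 7.92% lower. Each knockdown comparison was used in choosing these genes, and their counts carry no weight of their own. The counts were 3 higher and 2 lower of 8 tested for sorted sh-B7-H3 (1) (9.03% and 4.37% of 11167 genes), 4 and 1 of 9 for sorted sh-B7-H3 (2) (11.7% and 7.45% of 11248), and 3 and 2 of 8 for bulk tumors (12.8% and 8.51% of 11804). SCNN1B was the gene not tested in the comparisons with 8. The comparisons within sorted cells share their sh-NC libraries.

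**Figure D1:**
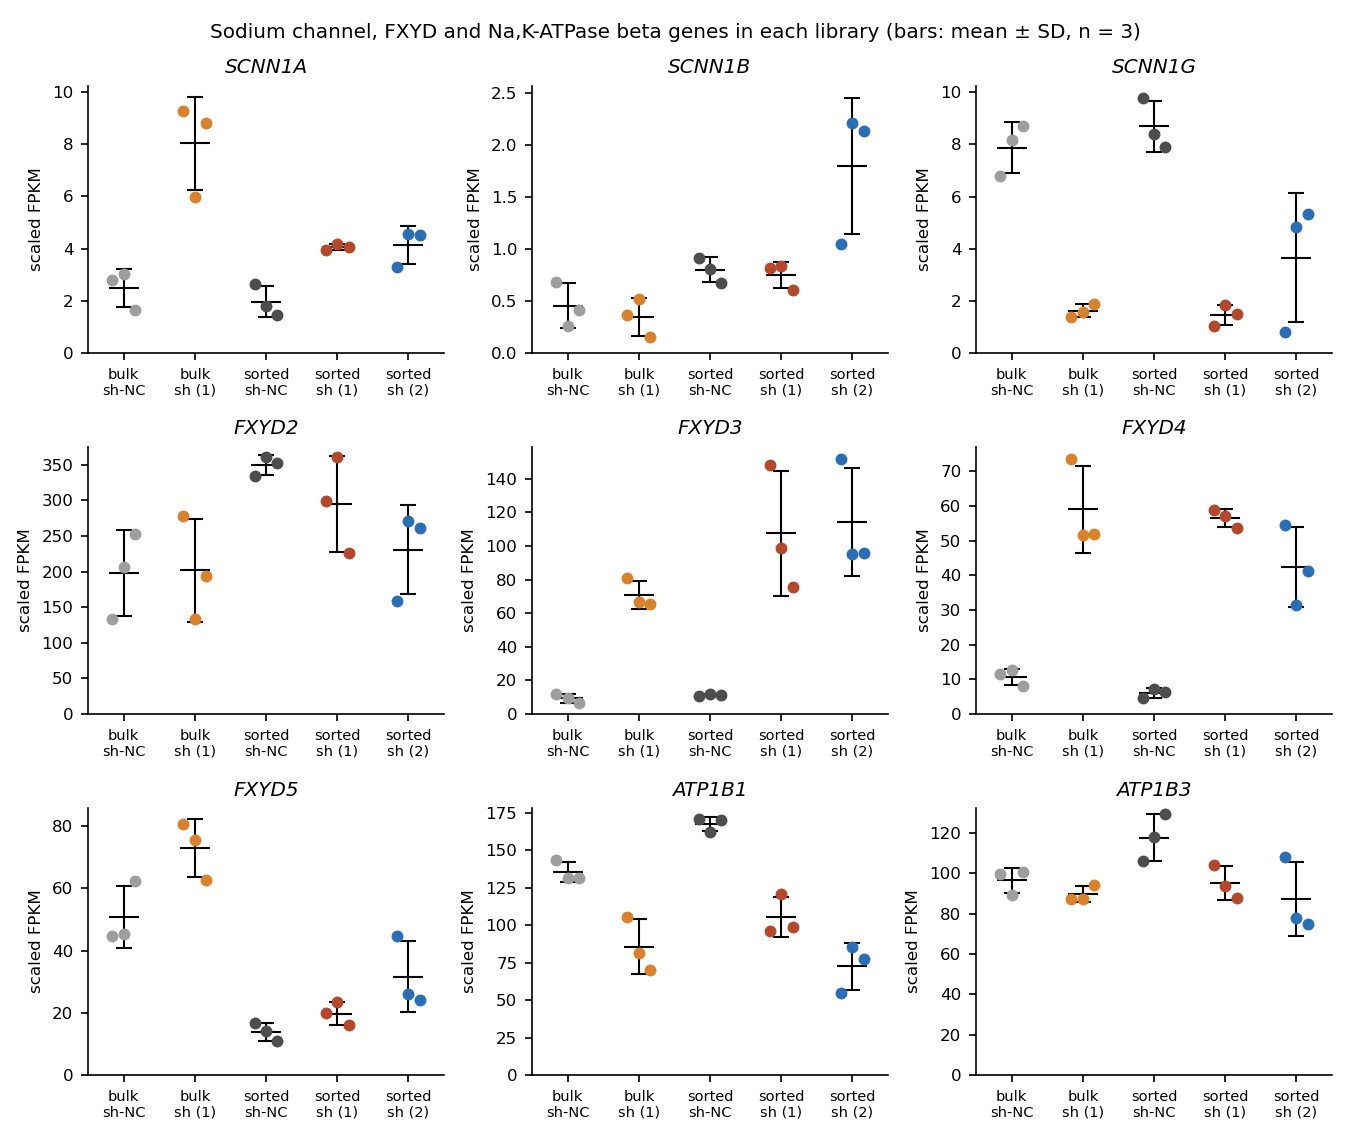
Scaled FPKM (y axis) of each of the 9 genes in every library, by group (x axis; sh (1) and sh (2) are the B7-H3 shRNAs); points are libraries and bars the mean ± SD of 3. FXYD3 and FXYD4 are higher and SCNN1G is lower in every knockdown library than in every control of the same material, and sorted sh-B7-H3 (2) replicate 1, the leftmost blue point, has the lowest SCNN1G level of all libraries, 0.813.

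The gamma subunit gene SCNN1G was the main ENaC transcript of control tumors. Its level was 9.79, 8.40 and 7.91 scaled FPKM in the 3 sorted sh-NC libraries, 1.05, 1.83 and 1.48 with sh-B7-H3 (1), and 0.813, 4.82 and 5.34 with sh-B7-H3 (2). Bulk tumors had 6.78, 8.16 and 8.69 with sh-NC and 1.39, 1.56 and 1.88 with sh-B7-H3 (1). No knockdown library overlapped a control of the same material, but sorted sh-B7-H3 (2) was split, with replicate 1 far below replicates 2 and 3. The log2 difference was -1.62 (SE 0.39) for both shRNAs, -1.99 (SE 0.16) for sh-B7-H3 (1), -1.25 (SE 0.44) for sh-B7-H3 (2) and -1.76 (SE 0.13) in bulk tumors. Without sorted sh-B7-H3 (2) replicate 1, the library rich in leukocyte transcripts, the difference for sh-B7-H3 (2) was -0.67 and that for both shRNAs -1.46. The part of host cells in this library's SCNN1G level was not tested.

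The spacing of the deposited values shows how many reads lay behind them, as the smallest whole numbers that fit a gene's 15 values. SCNN1G fitted at least 1081, 560 and 803 reads in sorted sh-NC libraries, at least 81, 180 and 168 with sh-B7-H3 (1), and at least 56, 333 and 452 with sh-B7-H3 (2). In bulk tumors these were 533, 560 and 518 against 89, 111 and 94. With 56 or more reads behind it, the lowest SCNN1G value does not rest on single reads.

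SCNN1A, the alpha subunit that forms the channel together with beta and gamma, had the opposite direction. It was at 2.63, 1.82 and 1.45 scaled FPKM in sorted sh-NC cells, at 3.94, 4.18 and 4.07 with sh-B7-H3 (1) and at 3.29, 4.57 and 4.52 with sh-B7-H3 (2). In bulk tumors it was at 2.82, 3.03 and 1.67 with sh-NC and at 9.27, 5.99 and 8.83 with sh-B7-H3 (1). Knockdown and control libraries did not overlap in either material. The log2 difference was 0.79 (SE 0.14) in sorted cells with both shRNAs and 1.37 (SE 0.21) in bulk tumors. Whether sorted and bulk material differed in this difference was not tested.

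SCNN1B, the beta subunit, was below 1 scaled FPKM, the level of the filter, outside the sorted sh-B7-H3 (2) libraries. Sorted sh-NC cells had 0.915, 0.808 and 0.674 scaled FPKM and sh-B7-H3 (1) cells 0.817, 0.832 and 0.603, so these groups overlapped. Sorted sh-B7-H3 (2) cells had 1.04, 2.21 and 2.14, all above both other groups. Bulk tumors stayed between 0.157 and 0.685, with overlap. The log2 difference of sorted sh-B7-H3 (2) from sh-NC was 0.61 (SE 0.19).

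Together these levels turned the make-up of the ENaC transcripts around. SCNN1G held 73.4% to 78.8% of the summed scaled FPKM of the 3 subunits in sorted sh-NC cells and SCNN1A 14.5% to 19.7%. With sh-B7-H3 (1), SCNN1G held 18.1% to 26.7% and SCNN1A 61.1% to 67.8%. With sh-B7-H3 (2), SCNN1G held 15.8% in replicate 1 but 41.6% and 44.5% in the other libraries. Bulk tumors gave mean SCNN1G shares of 72.6% with sh-NC and 16.4% with sh-B7-H3 (1). The sum itself was 11.5 ± 1.70 scaled FPKM in sorted sh-NC cells, 6.27 ± 0.528 with sh-B7-H3 (1), 9.57 ± 3.85 with sh-B7-H3 (2), and 10.8 ± 0.585 and 9.99 ± 1.66 in bulk sh-NC and sh-B7-H3 (1) tumors (SD, n = 3 each). SCNN1A was thus the larger subunit transcript than SCNN1G in every library of the bulk and sorted sh-B7-H3 (1) groups, while in sorted sh-B7-H3 (2) replicates 2 and 3 SCNN1G stayed slightly above SCNN1A.

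**Figure D2:**
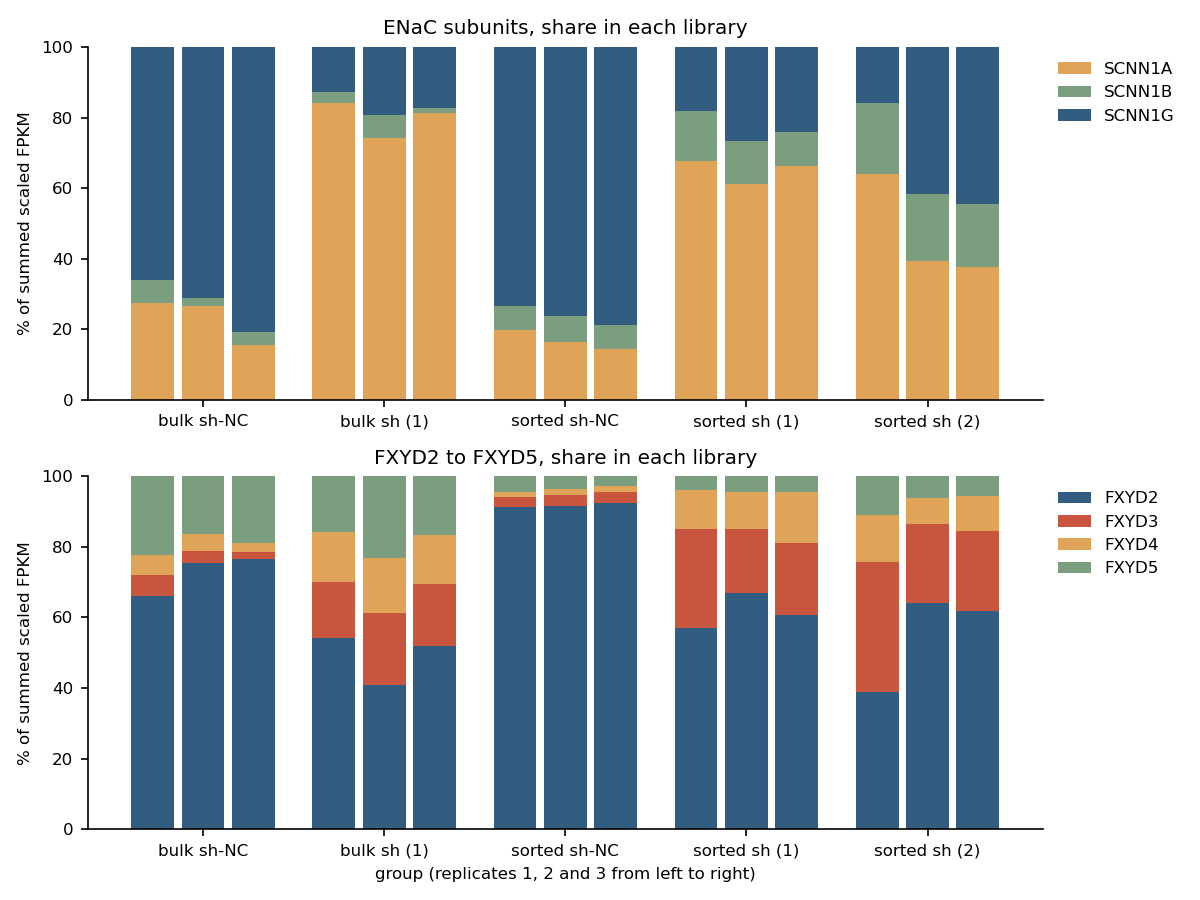
Share (y axis, %) of each ENaC subunit gene in their summed scaled FPKM (upper panel) and of FXYD2 to FXYD5 in theirs (lower panel), with 1 bar per library, grouped by material and shRNA. SCNN1G takes 65.9% or more in all 6 sh-NC libraries and at most 44.5% in the knockdown libraries, and FXYD2 takes 91.3% to 92.4% in sorted sh-NC cells.

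FXYD3, a pump regulator also known as Mat-8 that was first described in mammary tumors, had the highest fold of the 9 genes. Its level was 10.6, 11.9 and 11.5 scaled FPKM in sorted sh-NC cells, 148, 98.7 and 75.5 with sh-B7-H3 (1) and 152, 95.5 and 95.6 with sh-B7-H3 (2). In bulk tumors it was 11.99, 9.63 and 6.65 with sh-NC and 80.7, 66.9 and 65.3 with sh-B7-H3 (1). The lowest knockdown library was several times the highest control in both materials. Its log2 difference was 3.14 (SE 0.21) in sorted cells with both shRNAs, 8.79-fold on the scale with 1 added, and 2.81 (SE 0.20) or 7.03-fold in bulk tumors. Without sorted sh-B7-H3 (2) replicate 1 the first of these was 3.04.

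FXYD4, known as CHIF, is a pump regulator of the collecting duct and distal colon that is induced by corticosteroids. Sorted sh-NC cells had 4.59, 7.29 and 6.36 scaled FPKM, sh-B7-H3 (1) cells 58.7, 57.1 and 53.7, and sh-B7-H3 (2) cells 54.5, 31.5 and 41.2. Bulk tumors had 11.4, 12.6 and 7.99 with sh-NC and 73.5, 51.5 and 51.9 with sh-B7-H3 (1). Here too every knockdown library was above every control. On the log2 scale the difference was 2.82 (SE 0.205) in sorted cells, 7.06-fold, and 2.37 (SE 0.20) or 5.15-fold in bulk tumors.

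FXYD2, the gamma subunit of the renal pump, was the most abundant of the 9 transcripts in each group by its mean. Sorted sh-NC cells were at 334, 361 and 352 scaled FPKM, sh-B7-H3 (1) cells at 299, 361 and 226, and sh-B7-H3 (2) cells at 159, 272 and 261. In bulk tumors the values were 133, 207 and 253 with sh-NC and 278, 134 and 194 with sh-B7-H3 (1). Only sh-B7-H3 (2) cells were wholly below the sorted controls. This gave log2 differences of -0.45 (SE 0.22) in sorted cells and of 0.02 (SE 0.32) in bulk tumors.

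FXYD5, or dysadherin, a pump regulator that also weakens cell adhesion, was at 16.6, 14.1 and 10.96 scaled FPKM in sorted sh-NC cells, 19.9, 23.3 and 16.001 with sh-B7-H3 (1), and 44.8, 26.1 and 24.0 with sh-B7-H3 (2). Bulk tumors had 44.8, 45.2 and 62.5 with sh-NC and 80.7, 75.6 and 62.6 with sh-B7-H3 (1). Sorted sh-B7-H3 (1) cells overlapped the controls, sh-B7-H3 (2) cells did not, and the bulk groups were separated by a margin of 62.5 against 62.6. Its estimates were 0.79 (SE 0.26) for both shRNAs and 0.52 (SE 0.16) in bulk tumors. FXYD5 is also expressed in leukocytes and stroma, and its highest sorted value is in the library with 343 scaled FPKM of leukocyte markers. Without that library the difference for both shRNAs was 0.62. In bulk tumors, 7 fibroblast markers summed to 102 to 178 scaled FPKM with sh-NC and to 280.0 to 648 with sh-B7-H3 (1), and the leukocyte markers to 334 to 508 and to 323 to 638. Their part in the FXYD5 level was not tested.

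By share, FXYD2 held 91.8% of the summed FXYD2 to FXYD5 transcripts in sorted sh-NC cells on average, 61.5% with sh-B7-H3 (1) and 54.9% with sh-B7-H3 (2). The mean share of FXYD3 was 2.98%, 22.3% and 27.4%, and that of FXYD4 was 1.59%, 12.1% and 10.2%. FXYD2 remained the largest part in each of these libraries. The sum was 380.4, 479 and 419 scaled FPKM in these groups.

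ATP1B1 encodes the main beta subunit of the epithelial pump, which also holds neighbouring cells together. It was at 170.4, 162 and 170.0 scaled FPKM in sorted sh-NC cells, 96.2, 120.4 and 99.0 with sh-B7-H3 (1) and 54.6, 85.2 and 77.3 with sh-B7-H3 (2). Bulk tumors had 143, 131 and 132 with sh-NC and 106, 81.04 and 69.9 with sh-B7-H3 (1). Every knockdown library was below every control of its material. The log2 difference was -0.95 (SE 0.20) in sorted cells and -0.68 (SE 0.155) in bulk tumors. In the annotation ATP1B1 overlaps NME7, which was at 9.63 scaled FPKM in sorted sh-NC cells and 9.26 in knockdown cells.

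ATP1B3, a further beta subunit, was at 106, 118 and 129 scaled FPKM in sorted sh-NC cells, 104, 93.5 and 87.5 with sh-B7-H3 (1), and 108, 78.1 and 75.0 with sh-B7-H3 (2). Bulk tumors stayed between 87.2 and 101. The groups overlapped for sh-B7-H3 (2) and in bulk tumors. The log2 difference was -0.37 (SE 0.14) in sorted cells and -0.11 (SE 0.09) in bulk tumors, and with FPKM as deposited the first was -0.16. Of the summed beta transcripts, ATP1B1 held 58.8% in sorted sh-NC cells, 52.4% with sh-B7-H3 (1) and 45.5% with sh-B7-H3 (2).

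**Figure D3:**
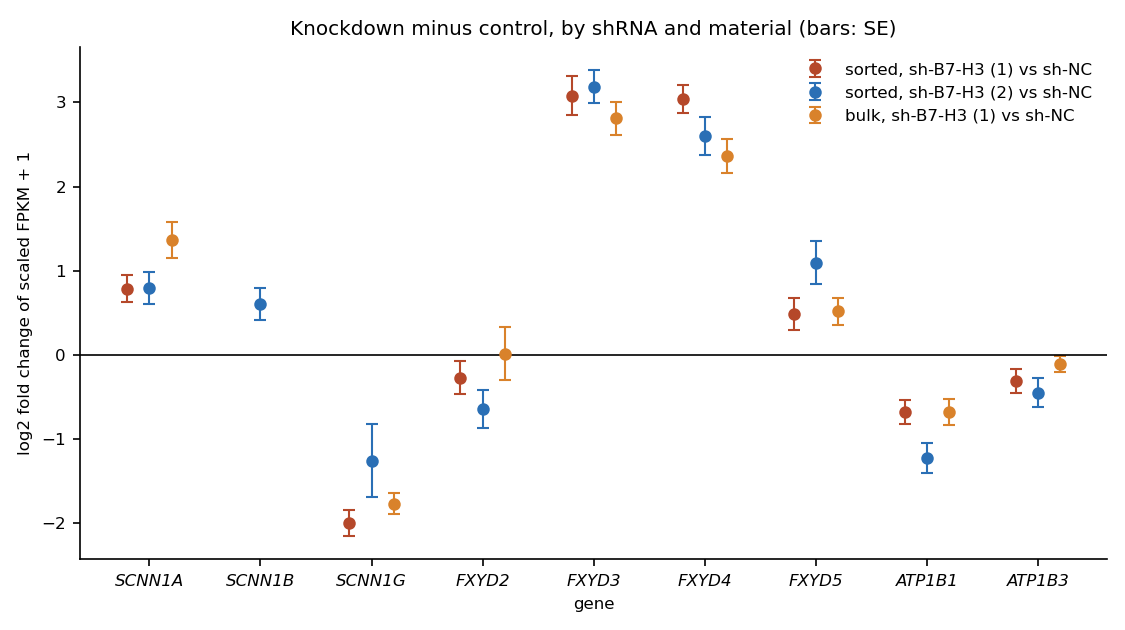
Log2 difference of scaled FPKM + 1 (y axis), B7-H3 shRNA minus sh-NC, for the 9 genes (x axis) in each comparison with 1 shRNA; points are limma estimates and bars 1 SE. FXYD3 (2.81 to 3.19) and FXYD4 (2.37 to 3.04) are the highest and SCNN1G (-1.25 to -1.99) the lowest; SCNN1B is drawn only where it was tested.

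Set in order within a group, the 9 genes changed places in the middle of the range. In sorted sh-NC cells the order of the means was FXYD2, ATP1B1, ATP1B3, FXYD5, FXYD3, SCNN1G, FXYD4, SCNN1A and SCNN1B, and of the neighbours only FXYD5 and FXYD3 overlapped between libraries. In sorted sh-B7-H3 (1) cells it was FXYD2, FXYD3, ATP1B1, ATP1B3, FXYD4, FXYD5, SCNN1A, SCNN1G and SCNN1B, where FXYD3, ATP1B1 and ATP1B3 overlapped. Sorted sh-B7-H3 (2) cells had FXYD3, ATP1B3 and ATP1B1, then FXYD4 and FXYD5, and then all 3 ENaC subunits, each of these sets overlapping within itself. In bulk sh-NC tumors FXYD2 overlapped ATP1B1, and FXYD4, FXYD3 and SCNN1G followed each other with overlap. In bulk sh-B7-H3 (1) tumors the run from ATP1B3 over ATP1B1, FXYD5 and FXYD3 to FXYD4 overlapped from neighbour to neighbour.

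The comparison between the B7-H3 shRNAs in sorted cells holds no sh-NC library and was not used in choosing the genes. None of the 9 genes differed at an adjusted p under 0.05 in limma, where 1.76% of 11244 genes were higher with sh-B7-H3 (1) and 1.64% lower, and 4 genes had an unadjusted p under 0.05. FXYD3 differed by -0.11 (95% interval -0.73 to 0.52, adjusted p = 0.85) and SCNN1A by -0.01 (-0.29 to 0.28, adjusted p = 0.98), sh-B7-H3 (1) minus (2). The interval for FXYD4 was 0.02 to 0.86 around 0.44 (adjusted p = 0.215) and that for SCNN1G -1.76 to 0.28 around -0.74 (adjusted p = 0.369). These intervals leave room for sizeable differences between the shRNAs, above all for SCNN1G. SCNN1B (-0.65, -1.09 to -0.21, adjusted p = 0.104) and FXYD5 (-0.61, -1.17 to -0.06, adjusted p = 0.193) gave estimates below 0, and ATP1B1 one above 0 (0.55, 0.14 to 0.96, adjusted p = 0.131). FXYD2 (0.37, adjusted p = 0.417) and ATP1B3 (0.14, adjusted p = 0.628) had intervals that span 0.

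Libraries of the same replicate number deviated together in this comparison, and with the replicate number as a block 1863 genes were called in place of 382. Of the 9 genes, ATP1B1 was then called higher with sh-B7-H3 (1) (0.55, SE 0.10, adjusted p = 0.0308). FXYD4 (adjusted p = 0.0974), SCNN1B (0.0691), FXYD5 (0.0826) and SCNN1G (0.153) were not. Without sorted sh-B7-H3 (2) replicate 1 and with no block, SCNN1G was lower by -1.32 (SE 0.15, adjusted p = 0.00282) and FXYD4 higher by 0.63 (SE 0.13, adjusted p = 0.0283) with sh-B7-H3 (1), and the estimate for FXYD3 turned from -0.11 to 0.11. Over all alternatives the adjusted p of SCNN1G ranged from 0.00282 to 0.743, that of FXYD4 from 0.0283 to 0.497 and that of ATP1B1 from 0.0308 to 0.292. The SCNN1G and FXYD4 calls between the shRNAs thus depend on whether the library with leukocyte transcripts is included.

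Bulk and sorted material with sh-NC were compared as well, a comparison that shares its libraries with those used to choose the genes. Of the 8 genes tested, 1 was higher in bulk tumors and 1 lower, against 10.4% and 6.48% of 11424 genes. FXYD5 was higher by 1.80 (SE 0.19, adjusted p = 0.000523), from 13.9 ± 2.81 scaled FPKM in sorted cells to 50.8 ± 10.1 in bulk tumors (SD, n = 3), and this held in all alternatives (1.65 to 1.93 among those that left out 1 library). FXYD2 was lower by -0.87 (SE 0.24, adjusted p = 0.0447), a call that was lost without the scaling, without the filter, and without any 1 of the 3 bulk libraries or of sorted replicates 2 and 3 (adjusted p up to 0.165). Host cell markers differed between these materials. The leukocyte markers summed to 334 to 508 scaled FPKM in bulk and 5.25 to 9.27 in sorted sh-NC libraries, macrophage markers to 577 to 888 and 30.9 to 44.2, endothelial markers to 24.6 to 44.5 and at most 0.668, and fibroblast markers to 102 to 178 and 54.0 to 96.6. Their part in the FXYD5 and FXYD2 differences was not tested, and in bulk tissue fewer cells of a type and less RNA per cell cannot be told apart.

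The other genes tested were not called in this comparison. FXYD4 was at 0.72 (adjusted p = 0.0518), which passed the threshold with replicate numbers as a block and in a fit of all 15 libraries. SCNN1G (-0.13, adjusted p = 0.558), SCNN1A (0.24, 0.464), FXYD3 (-0.28, 0.361), ATP1B1 (-0.31, 0.140) and ATP1B3 (-0.28, 0.194) lay closer to 0. The 95% interval for SCNN1G was -0.45 to 0.20.

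The wider setting was taken from 70 other genes of sodium transport and its control, all of them in the table. Their lists were chosen with earlier results of these data known. Counts and medians of list genes beside those of all genes are therefore a description only. In sorted cells with both shRNAs 38 were tested, 17 were higher and 4 lower (12.6% and 7.92% of all genes tested), and their median log2 difference was 0.28 against 0.007 over all genes tested. In bulk tumors 39 were tested, 14 were higher and 2 lower (12.8% and 8.51%), and the median was 0.49 against 0.024. Of the 21 genes called in sorted cells, 15 lost their call in none of the alternatives that tested them, which were 11 for ASIC1 and 14 for the others. Among the called genes, AQP3, KCNJ15 and ATP6V1B1 passed the filter only through knockdown libraries, in sorted cells and in bulk tumors alike. STK39 in sorted cells and ATP1B2 in bulk tumors passed it only through knockdown libraries too, and ASIC1 only through sh-NC libraries. These genes were thus tested only because of the group where they were high.

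Channel-activating proteases and their inhibitors were the list with most calls: 9 of 10 tested genes were higher in sorted cells (median 1.29), and 7 of 10 in bulk tumors (median 0.87). TMPRSS4, a transmembrane serine protease that cleaves ENaC, was at 3.28, 4.52 and 4.60 scaled FPKM in sorted sh-NC cells and between 35.0 and 77.3 in the 6 knockdown libraries, a difference of 3.29 (SE 0.21, adjusted p = 2.80e-06). The gene for matriptase, ST14, rose from 4.22 ± 1.39 to 36.9 ± 5.11 (2.89, SE 0.18, adjusted p = 2.18e-06), and PRSS8, for the channel-activating protease prostasin, from 0.937 ± 0.305 to 6.28 ± 0.670 (1.92, SE 0.12, adjusted p = 2.54e-06). SPINT1, which encodes an inhibitor of matriptase and prostasin, rose from 3.86 ± 0.996 to 34.0 ± 3.65 (2.86, SE 0.14, adjusted p = 6.55e-07). PLAU, urokinase, rose by 1.48 (SE 0.20, adjusted p = 0.000388). FURIN (0.49, adjusted p = 0.0389) and CTSB (0.54, adjusted p = 0.0364) passed the threshold but missed it in 8 and 7 of 14 alternatives. In bulk tumors TMPRSS4 (2.43, SE 0.21, adjusted p = 0.00226), ST14 (2.36, SE 0.25, adjusted p = 0.00307) and PRSS8 (2.01, SE 0.22, adjusted p = 0.00307) rose as well, and SPINT1 rose by 1.45 (SE 0.19, adjusted p = 0.00489). Most epithelial markers moved with this group: the 8 of them summed to 1010 to 1144 scaled FPKM in sorted sh-NC cells and 1871 to 2206 in sorted knockdown cells, and to 866 to 971 and 1153 to 1418 in bulk tumors. In sorted cells CDH1 was the exception, at 210.5 to 358 with sh-NC and 167 to 229.7 with knockdown, and in bulk tumors CDH1, KRT8 and CLDN4 overlapped between the groups. Their relation to the protease and FXYD levels was not tested.

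**Figure D4:**
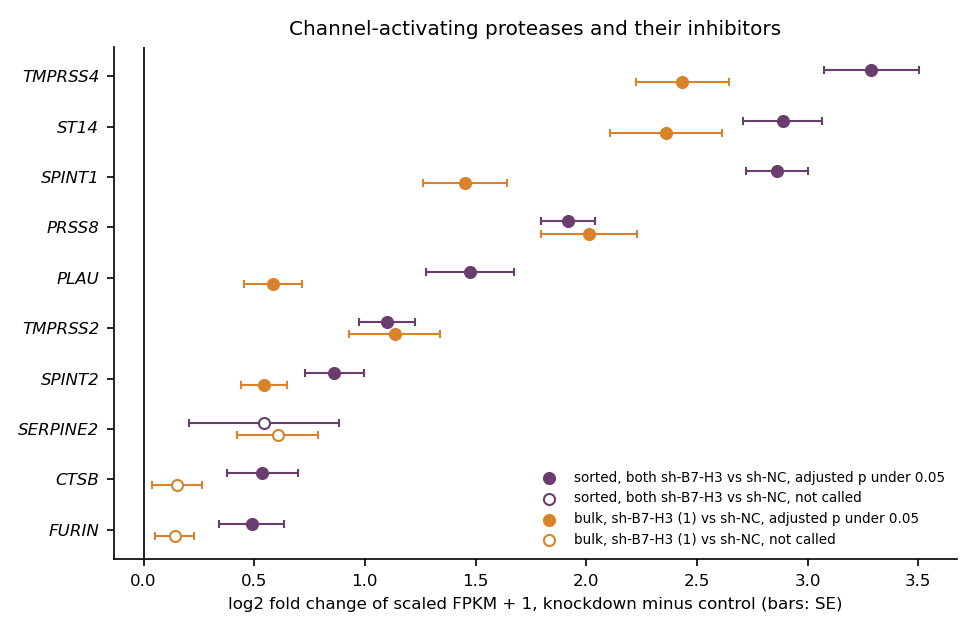
Log2 difference of scaled FPKM + 1 (x axis), B7-H3 shRNA minus sh-NC, for the 10 tested protease and inhibitor genes (y axis) in sorted cells with both shRNAs and in bulk tumors with sh-B7-H3 (1); bars are 1 SE and filled points have an adjusted p under 0.05. All estimates lie above 0, the highest being 3.29 for TMPRSS4 in sorted cells, and SERPINE2 is called in neither.

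Genes of the hormonal and ubiquitin control of ENaC did not move in 1 direction. Of 18, 13 were tested in sorted cells, 2 were higher and 3 lower, and the median was -0.00. SGK1, the aldosterone-induced kinase that keeps ENaC at the membrane, was at 31.0, 45.9 and 38.1 scaled FPKM in sorted sh-NC cells and 20.5 to 53.9 in knockdown cells (difference -0.00, SE 0.27, adjusted p = 0.999). NEDD4L gave 0.03 (SE 0.13, adjusted p = 0.914). HSD11B2, the enzyme that shields the mineralocorticoid receptor from cortisol-like steroids, was lower in sorted knockdown cells (3.85 ± 1.56 against 8.65 ± 1.08, -1.07, SE 0.29, adjusted p = 0.0247), a call lost in 5 of 14 alternatives, among them without each of the 3 sorted sh-NC libraries, and not seen in bulk tumors (0.40, adjusted p = 0.493). NR3C2, the mineralocorticoid receptor, was too low to be tested. It was at 0.177 to 0.354 scaled FPKM in sorted sh-NC and 0.784 to 1.18 in sorted knockdown libraries, and at 0.190 to 0.292 and 0.723 to 1.32 in bulk tumors. STK39, the kinase SPAK that acts on sodium-chloride cotransporters, rose by 1.38 (SE 0.31, adjusted p = 0.00956), whereas its relative OXSR1 fell (-0.41, SE 0.08, adjusted p = 0.00333), as did the ubiquitin ligase scaffold CUL3 (-0.45, SE 0.13, adjusted p = 0.0286). Both of these calls were lost with FPKM as deposited, and that of CUL3 in 7 of 14 alternatives.

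Neither of the 2 other FXYD genes tested in sorted cells was called. ASIC1, a channel of the ENaC family that opens on acidification, was lower in sorted (-0.74, SE 0.13, adjusted p = 0.00285) and bulk knockdown libraries (-1.31, SE 0.11, adjusted p = 0.00211).

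Of 27 other renal salt and water transporters 11 were tested in sorted cells, where 12.6% of all genes tested were higher. Of these 11 genes, 6 were higher (median 0.65). They included AQP3, the water and glycerol channel of the collecting duct (0.3999 ± 0.0959 to 3.06 ± 1.33, 1.47, SE 0.26, adjusted p = 0.00232), and the proton pump subunits of intercalated cells, ATP6V1B1 (0.74, SE 0.14, adjusted p = 0.00383) and ATP6V0A4 (0.65, SE 0.11, adjusted p = 0.00184). KCNJ15, a potassium channel, passed narrowly (1.89, SE 0.59, adjusted p = 0.0464) and lost its call in 8 of 14 alternatives. AQP3, ATP6V1B1 and KCNJ15 were tested only because of the knockdown libraries, where they were high. The count of 6 and the median thus rest in part on the filter. In bulk tumors CAR2, carbonic anhydrase 2, fell (24.8 to 8.02 scaled FPKM, -1.54, SE 0.28, adjusted p = 0.0129), a call lost in 2 of 11 alternatives. In sorted cells CAR2 was called lower with sh-B7-H3 (1) but not with sh-B7-H3 (2), at means of 12.1 and 27.9 scaled FPKM. The cotransporter gene SLC12A2 was called higher in bulk tumors (0.49, SE 0.14, adjusted p = 0.0456), a call lost in 8 of 11 alternatives. In sorted cells SLC12A2 was higher by 0.96 (SE 0.12, adjusted p = 0.000306), a call lost in none of the 14 alternatives.

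Between the shRNAs, 1 of 37 list genes was higher with sh-B7-H3 (1) and 2 were lower, where 1.76% and 1.64% of all genes were. With the replicate block 11 list genes and 1863 of 11244 genes in all were called. STK39 (1.12 against 3.50 scaled FPKM, -1.09, adjusted p = 0.0061; range over alternatives 0.00291 to 0.0437) and KCNJ15 (1.85 against 11.1, -2.01, adjusted p = 0.0218) were lower with sh-B7-H3 (1), and AQP3 was higher (4.16 against 1.96, 0.82, adjusted p = 0.0417). The KCNJ15 call was lost in 6 and the AQP3 call in 7 of 11 alternatives. Between bulk and sorted sh-NC material 5 of 35 list genes were higher in bulk and 1 lower, against 10.4% and 6.48% of all genes tested, so that the count was close to that background. SERPINE2, an inhibitor of serine proteases, had the largest difference among them (3.33, SE 0.18, adjusted p = 1.65e-05). SPINT1 (1.07, adjusted p = 0.0102), ASIC1 (0.72, 0.0123) and FURIN (0.67, 0.0320) were higher in bulk tumors as well, and SGK1 was lower in bulk tumors (15.9 against 38.3 scaled FPKM, -1.21, SE 0.18, adjusted p = 0.00346). The SERPINE2 call was lost in none of the 11 alternatives, and those of SGK1, SPINT1, ASIC1 and FURIN were lost in 2, 3, 5 and 6 of them.

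Genes beside the 9 were read from the annotation, within 100000 bases of them. Of 36 such neighbours 19 were tested in sorted cells with both shRNAs, 6 were higher and 2 lower, where 12.6% and 7.92% of all genes tested were. Among those higher, PLEKHG6, HPN and TMPRSS13 passed the filter only through knockdown libraries. Their means in sorted sh-NC cells were 0.139, 0.627 and 0.231 scaled FPKM, so they were tested only because of the group where they were high. LSR, a tight junction gene 97066 bases from FXYD3, rose by 2.00 (adjusted p = 1.51e-06) and HPN, the transmembrane protease hepsin, by 0.90 (adjusted p = 0.00583), while GRAMD1A (-0.18, adjusted p = 0.240) and FXYD1 (0.29, 0.469) of the same cluster were not called. Beside SCNN1A, LTBR (0.12, 0.445) and TNFRSF1A (0.25, 0.127) were not called, and PLEKHG6 (1.00, 0.000377) and TAPBPL (1.78, 2.40e-05) were. The neighbour closest to SCNN1G, USP31, gave -0.11 (adjusted p = 0.651), and COG7 (-0.63, 0.00248) and GGA2 (-0.61, 0.00906) beside SCNN1B were lower, both calls lost with FPKM as deposited. The annotation of FXYD3 overlaps that of LGI4, which was at 0.0733 scaled FPKM in sorted sh-NC cells and 0.169 in knockdown cells.

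Genes with the pattern most like SCNN1G, FXYD3 and FXYD4 over the 15 libraries were found by the root mean square difference of centred log2 values, among 11607 genes. For SCNN1G these were MAPK4 (0.313), OPLAH (0.340) and ALDH1L2 (0.348). Each of them was lower in sorted sh-B7-H3 (2) replicate 1 than in replicates 2 and 3. These libraries entered the ranking, so this likeness is part of how the genes were picked. For FXYD3 they were IL18R1 (0.212), the protease gene TMPRSS4 (0.246) and the tetraspanin gene TSPAN1 (0.260). For FXYD4 they were FAM174B (0.278), DEGS2 (0.288) and ATP9A (0.295). IL18R1, the gene closest to FXYD3, was at 3.37, 6.41 and 4.32 scaled FPKM in sorted sh-NC cells and between 32.9 and 66.1 in sorted knockdown cells. MAPK4, the gene closest to SCNN1G, was at 5.84, 5.23 and 3.64 and between 0.782 and 2.85.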

How the data were processed

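RNA sequencing covered 15 libraries of 105K tumors, grouped by their labels. The authors deposited 1 table of FPKM, although it is named for gene counts, and a smaller log2 table, not used here; mm10 is the build in the submitters' processing notes. The aligner's settings and the use of strand in counting are not given in the sources used here, and labels and paper name different kits. Of 24917 entries, 26 with symbols turned into dates were left out. FPKM were divided by median-ratio factors (0.647 to 1.18) over 9872 genes with at least 1 FPKM in all 15 libraries, and log2(scaled FPKM + 1) was tested in R 4.3.3 by limma (3.58.1, trend of variance on mean), the filter of 1 scaled FPKM in 3 libraries and Benjamini-Hochberg adjustment over all genes tested, at 0.05. The procedure was tested on simulated data. Python 3.11.15, numpy 2.4.6, pandas 2.3.3 and scipy 1.17.1 were used. Read totals are unknown, so only relative depth (0.468 to 1) is known. A fold with 1 added understates changes of low genes. Whole reads were sought with a tolerance of 0.05.

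Same-numbered libraries deviated together between sorted sh-B7-H3 (1) and (2), with correlations over genes of 0.316, 0.330 and 0.357, so the blocked fit is given there. In the other comparisons at least 1 pair was below 0.1. The genes, lists and tests were chosen with earlier results of these data known. Named list genes, apart from some not reported here, are SGK1, NEDD4L, NR3C2, HSD11B2 and PRSS8, the 8 largest and 8 smallest changes among called genes in sorted cells with both shRNAs, and the 3 largest and 3 smallest in bulk tumors, between shRNAs and between materials. ATP1B2 is named only for how it passed the filter. Alternatives were FPKM as deposited, a pseudocount of 0.1, no filter, a replicate block, 1 fit of all libraries, and leaving out each library.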

Additional observations from a re-analysis of the deposited data

Results flagged for a closer look

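In 48 transport and member genes, the 6 sorted knockdown libraries were screened for a value apart from the rest by Dixon's ratio at the 95% level for 6 samples. In all, 2 genes passed, about as many as the 1 in 20 that chance gives, and both did so through sorted sh-B7-H3 (2) replicate 1. HSD11B2 was at 1.21 scaled FPKM there and at 3.79 to 6.04 in the other 5 libraries, and SERPINE2 at 5.74 against 0.962 to 1.60. The same library has 343 scaled FPKM of leukocyte markers and 21.3 of endothelial markers, and SERPINE2 was 3.33 higher on the log2 scale in bulk than in sorted sh-NC material. Whether host cells set these values was not tested.

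Some transport genes differed between the B7-H3 shRNAs by a test of the difference itself (limma, sh-B7-H3 (1) minus (2)). They were STK39 (-1.09, adjusted p = 0.0061), KCNJ15 (-2.01, adjusted p = 0.0218) and AQP3 (0.82, adjusted p = 0.0417). The KCNJ15 and AQP3 calls were lost without any 1 sh-B7-H3 (1) library and without sh-B7-H3 (2) replicate 2 or 3.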

How the results depend on the processing

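Of 579 values of the 9 genes under an alternative, 551 kept their direction and side of the threshold or moved by less than the spread. Some differences near 0 changed sign. Between the shRNAs, SCNN1A became 0.01 without sh-B7-H3 (1) replicate 1, 0.058 without sh-B7-H3 (2) replicate 2 and 0.052 without replicate 3 (leave-one-out range -0.13 to 0.058). FXYD3 became 0.12 without sh-B7-H3 (1) replicate 3 and 0.11 without sh-B7-H3 (2) replicate 1 (range -0.36 to 0.12). Against sh-NC, FXYD2 in bulk tumors, at 0.02, had a leave-one-out range of -0.24 to 0.28. With the replicate block, changed genes numbered 915 in place of 1496 for sorted sh-B7-H3 (1), 1396 in place of 2153 for sorted sh-B7-H3 (2), 1413 in place of 2520 in bulk tumors and 1863 in place of 382 between the shRNAs, where the transport genes called went from 3 to 11. Outside the comparison between the shRNAs same-numbered libraries did not all deviate together, and whether they were paired is not given in the sources used here. With FPKM as deposited there were 961 in bulk tumors and 652 in place of 1927 between bulk and sorted sh-NC material. Without the filter there were 137 between the shRNAs, and 11 transport genes in place of 6 between materials, and 1 fit of all libraries gave 3083 genes there. Leaving out 1 library gave 1411 to 2585 genes for both shRNAs (fewest without sorted sh-NC replicate 2), 724 to 1948 for sh-B7-H3 (1), 964 to 3611 for sh-B7-H3 (2), 546 to 3793 in bulk tumors, 35 to 890 between the shRNAs and 140 to 4439 between materials. Transport genes called then ranged from 15 to 21 for both shRNAs, 8 to 18 for sh-B7-H3 (1), 12 to 21 for sh-B7-H3 (2), 5 to 17 in bulk tumors (5 without sh-B7-H3 (1) replicate 1), 1 to 5 between the shRNAs (5 without sh-B7-H3 (2) replicate 1) and 1 to 8 between materials (1 without bulk replicate 1 or 2). The causes were not tested. Low genes such as SCNN1B passed the filter in some comparisons only, and the part of depth in their values was not tested.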
